A study of Homo sapiens with 4 samples.

Results

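Histone H3 acetylation at the genes of the heat shock protein and DNAJ chaperone families was compared between H929 cells that overexpressed AIMP1 and wild-type H929 cells. H929 is an established human multiple myeloma cell line, and AIMP1 is a scaffold subunit of the multi-tRNA synthetase complex. Each group had 1 acetyl-H3 chromatin immunoprecipitation and sequencing (ChIP-seq) library with 1 list of peaks, so no value below has a replicate and no difference between the groups could be tested. The sources used here do not give the vector, the promoter or the number of clones behind the overexpression. The input libraries were not analysed here.

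The members were the peaks whose gene symbol begins with DNAJ, HSPA, HSPB, HSPD, HSPE, HSPH or HSP90A, or is a numbered BAG gene, HSF1 or HSF2. HSPA5 was left out. They were 54 of the 9780 overexpression peaks and 27 of the 4828 wild-type peaks, and they carried 49 gene symbols. In RefSeq 80 protein-coding genes of these names fall into chaperone classes, and 34 of the 80 had no peak named for them in either list. A peak of any kind was named for 42 in the overexpression list, 18 in the wild-type list and 14 in both. Over all 19974 protein-coding genes these numbers were 7204, 2895 and 1854. HSPB11 is counted with the small heat shock proteins by its symbol, although RefSeq names the gene IFT25, a subunit of ciliary transport. The members DNAJC3-DT and DNAJC9-AS1 are non-coding, and HSPE1-MOB4 is a readthrough gene. None of the 122 pseudogenes with such names had a peak, but the share of all pseudogenes with a peak is not given here.

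Chaperones bind unfolded proteins and keep them from aggregating. HSP70 proteins bind short hydrophobic stretches in a cycle driven by ATP. J-domain (DNAJ) proteins bring substrates to HSP70 and stimulate its ATPase, and HSP110 and BAG proteins release the nucleotide. HSP90 acts later, on kinases and other nearly folded clients. Heat shock factor 1 (HSF1) switches on many of these genes by binding heat shock elements, which are alternating inverted copies of GAA. Plasma cells secrete antibody in bulk and depend on this machinery in the cytosol and in the endoplasmic reticulum (ER). Acetylated H3 is a mark of active promoters and enhancers.

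Heat shock elements were looked up first, because they are the sequence by which the inducible members are known. RefSeq (GRCh38.p14) promoter windows, from 250 bases before to 50 bases after each listed start, were available for 71 of the 80 genes. The windows were searched on both strands for 3 units, written GAANNTTCNNGAA or TTCNNGAANNTTC. Of the 71 genes 7 had a match (9.86%), against 85 of 15813 protein-coding genes (0.538%). They were HSPA8, HSP90AB1, HSP90AA1, HSPD1, HSPA6, DNAJB6 and DNAJA1. Of the 14 heat-responsive members counted further below only 6 (42.9%) had such a match. HSPA1A, HSPA1B and DNAJB1, all heat-inducible, were without one, so this strict form misses inducible members. The 2-unit form, GAANNTTC or TTCNNGAA, lies within every 3-unit match and was found in 23 members (32.4%) and in 14.9% of all protein-coding genes. The ER stress element, CCAAT and CCACG with any 9 bases between them, was found in none of the 71 members and in 0.133% of all protein-coding genes. A match is a run of letters and not a measured binding site. The sources used here name no build for the peaks, but the gene places written in the peak lists are those of GRCh38.p14 for every member, so peaks and windows were laid over each other.

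The stretches with the 3-unit matches are printed 5′ to 3′ on the strand of the gene, with the matches in capitals, since the peaks over them are described next. They are the 250 bases before the start of HSPA8 (chr11:123062137-123062386, minus strand), 100 bases before the most downstream listed start of HSP90AB1 (chr6:44247753-44247852, plus strand), 150 bases before a start of HSP90AA1 (chr14:102087045-102087194, minus strand), 60 bases before the more downstream of 2 listed starts of HSPD1, which lie within the gene as counted from its other start (chr2:197500031-197500090, minus strand), 100 bases before the start of HSPA6 (chr1:161524440-161524539, plus strand), 100 bases upstream of DNAJB6 (chr7:157336844-157336943, plus strand) and 70 bases across the start of DNAJA1 (chr9:33025223-33025292, plus strand).
HSPA8: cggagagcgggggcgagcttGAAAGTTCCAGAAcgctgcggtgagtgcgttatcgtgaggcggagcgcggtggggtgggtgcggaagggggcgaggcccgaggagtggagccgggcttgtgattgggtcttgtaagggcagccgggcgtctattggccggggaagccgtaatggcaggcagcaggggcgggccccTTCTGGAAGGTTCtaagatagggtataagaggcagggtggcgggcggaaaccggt
HSP90AB1: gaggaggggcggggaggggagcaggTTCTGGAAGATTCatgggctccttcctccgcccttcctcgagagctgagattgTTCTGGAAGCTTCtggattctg
HSP90AA1: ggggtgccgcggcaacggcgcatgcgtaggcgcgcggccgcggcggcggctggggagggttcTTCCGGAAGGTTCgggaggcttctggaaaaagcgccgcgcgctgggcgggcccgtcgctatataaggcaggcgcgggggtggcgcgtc
HSPD1: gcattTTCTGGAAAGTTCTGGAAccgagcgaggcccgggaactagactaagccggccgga
HSPA6: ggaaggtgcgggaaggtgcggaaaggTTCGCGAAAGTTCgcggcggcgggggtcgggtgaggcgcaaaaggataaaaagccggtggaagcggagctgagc
DNAJB6: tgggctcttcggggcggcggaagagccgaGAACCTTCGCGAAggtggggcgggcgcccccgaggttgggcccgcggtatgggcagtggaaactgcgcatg
DNAJA1: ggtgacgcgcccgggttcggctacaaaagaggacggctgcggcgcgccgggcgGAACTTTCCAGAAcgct

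An overexpression peak covered the 3-unit matches of all 7 genes, and a wild-type peak covered those of HSPA8 and HSP90AB1. The starts of these genes lay in peaks in the same way, 7 of 7 after overexpression and 2 of 7 in the wild type. Over all 85 protein-coding genes with a match, the 7 included, 33 had a start in an overexpression peak (38.8%) and 3 in a wild-type peak (3.53%). HSPA8 and HSP90AB1 each had a pair of separate matches, and both matches lay inside the peaks of both libraries. In HSPD1 the 2 matches overlap into a run of 4 units. The nearest wild-type peak to the element of HSP90AA1 was 2602 bp away, and that to the element of HSPA6 was 7742 bp away. For DNAJA1, DNAJB6 and HSPD1 the nearest wild-type peak was at least 198094 bp away.

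Promoter peaks were listed for many more chaperone genes in the overexpression library than in the wild-type library, as was so for genes at large. A promoter peak is one that the authors' annotation places within 3 kb of a transcription start. Of the 80 genes 38 had one in the overexpression list, which is 47.5% (exact 95% binomial interval 36.2 to 59.0), beside 33.9% of all 19974 protein-coding genes. In the wild-type list 13 had one, which is 16.2% (8.95 to 26.2), beside 7.40% of all genes. These intervals cover counting error only. Both lists had a promoter peak for 11 of the 80 genes (13.8%, beside 5.39% of all genes), the overexpression list alone for 27 (33.8%, beside 28.5%) and the wild-type list alone for 2 (2.5%, beside 2.01%). With the overexpression list shortened to the 4828 peaks of smallest p, the length of the wild-type list, the members in the overexpression list alone numbered 18 instead of 28, and those in the wild-type list alone 4 instead of 2, non-coding and readthrough members included. The shares of all genes under the shortened list are not given here, so these numbers describe the members alone. With the non-coding and readthrough members and the full lists the numbers were 41 symbols after overexpression, 15 in the wild type and 13 in both. A gene without a listed peak passed no threshold there, which does not show that its promoter lacked acetylation.

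The lists name 1 gene for each peak, so a promoter shared by neighbours counts for only 1 of them. Of the 71 genes with a listed start, 49 (69.0%) had an overexpression peak within 1 kb of it, beside 43.0% of protein-coding genes, and 14 (19.7%) had a wild-type peak there, beside 6.87%. Through such neighbours 12 more genes had an overexpression peak and 3 more a wild-type peak. The chaperonin genes HSPD1 and HSPE1, whose products form the mitochondrial folding chamber, are examples. Their closest listed starts lie 105 bp apart, and the 1413 bp overexpression peak named for HSPE1-MOB4 (fold 8.38) held the starts of both. DNAJC7 lay in an overexpression peak named for NKIRAS2 (10.96), DNAJC30 in one for BUD23 (7.07), and HSPBAP1 563 bp from one for DIRC2 (9.18).

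The folds and p-values given here were assigned to each peak by the authors. The headers leave the background of the fold undescribed, so the values order peaks inside 1 list and say nothing of a rise or fall between the libraries. The 46 overexpression promoter peaks of the members had folds from 4.09 to 18.32 with a median of 7.93, beside a median of 7.65 over all 8300 promoter peaks of that list. Their median width was 2014 bp, beside 1684 bp. The 15 wild-type promoter peaks had folds from 3.09 to 5.14 with a median of 4.11, beside 4.47 over all 1739, and a median width of 1152 bp, beside 943 bp. The median member lay at percentile 56.1 of the overexpression promoter folds and at percentile 37.9 of the wild-type ones, where 5 of 15 were above the median of the list. In width 28 of 46 and 10 of 15 were above it. At p of at most 1e-05 were 40 of the 46 overexpression peaks (87.0%, beside 73.3% of all promoter peaks of that list). In the wild-type list 3 of the 15 were (20.0%, beside 17.5%), those of HSPA8, DNAJB12 and DNAJC3-DT.

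**Figure D1:**
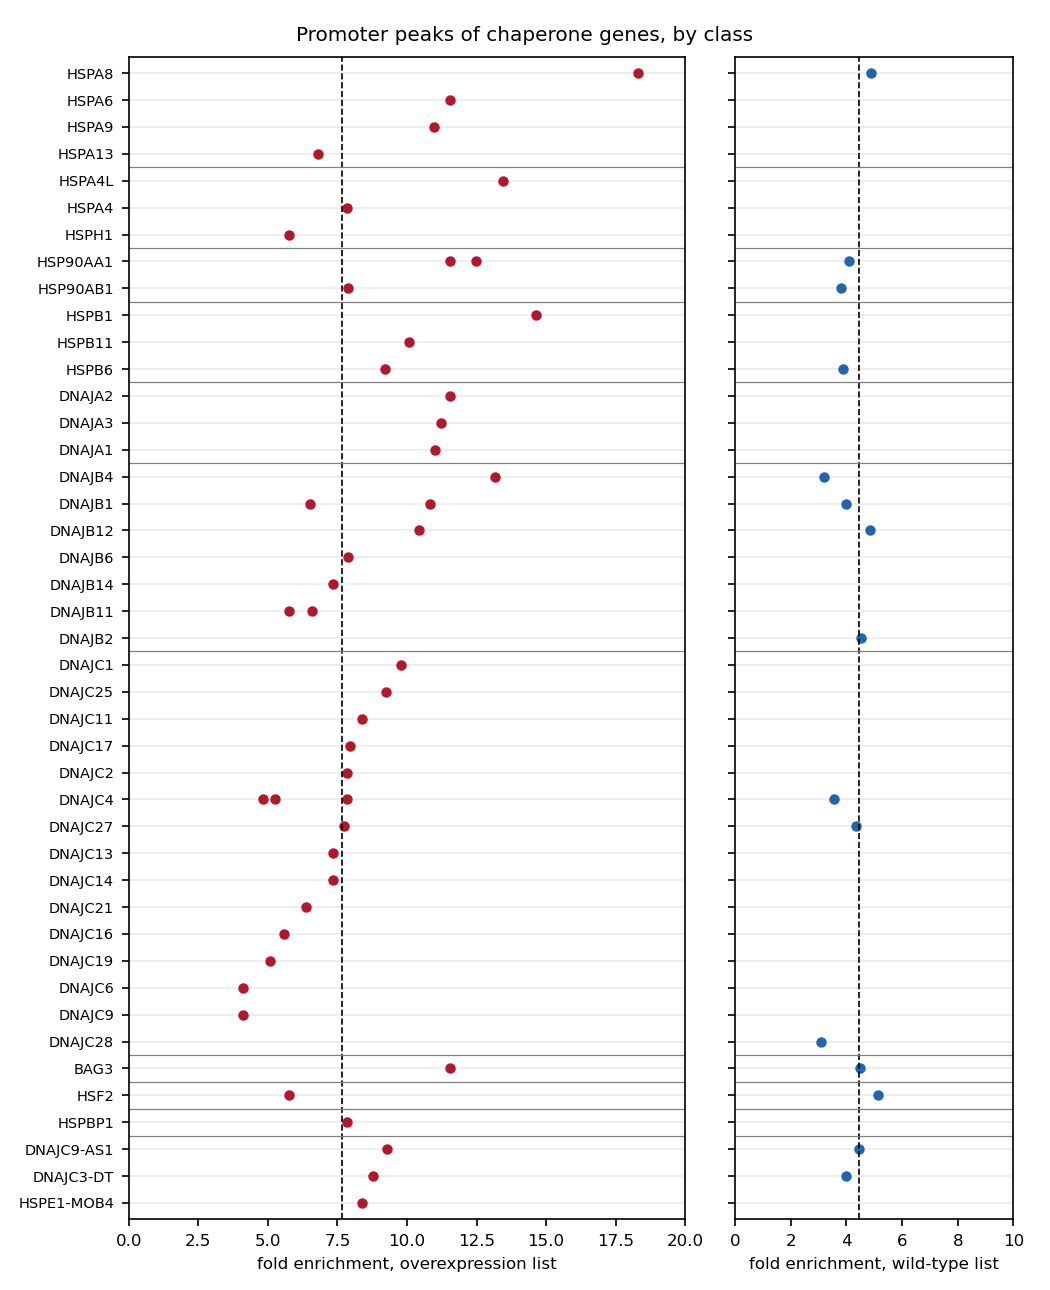
Fold enrichment (x axis) of each promoter peak of the members (1 row per gene, grouped by class from HSP70 at the top to the non-coding and readthrough members at the bottom), in the overexpression list (left, red) and the wild-type list (right, blue); dashed lines mark the median of all promoter peaks of that list, 7.65 and 4.47. HSPA8 has the highest overexpression fold, 18.32, and the DNAJC genes reach at most 9.8.

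Among the 11 HSP70 genes the overexpression list had promoter peaks for 4 (36.4%) and the wild-type list for 1 (9.09%). These shares were near those of all protein-coding genes, 33.9% and 7.40%. HSPA8, the constitutive cytosolic HSP70, had the highest fold of all members in the overexpression list, 18.32 (chr11:123060022-123064595, p 9.18e-60), at percentile 99.3 of that list's promoter peaks. Its peak was 4574 bp wide. The wild-type peak of HSPA8 (chr11:123061624-123063047) had a fold of 4.89 with p 7.85e-07, the smallest p among the wild-type promoter peaks of the members, and lay wholly within the overexpression peak. HSPA6, a strictly stress-inducible HSP70, had an overexpression promoter peak of only 818 bp with a fold of 11.53 (p 9.62e-07). The wild-type list named a peak 7680 bp from the start for HSPA6 (fold 4.27, p 0.000155). It was annotated as intronic, and which gene holds that intron was not checked. HSPA9, the mitochondrial HSP70, had a fold of 10.98 (p 2.98e-23) and HSPA13, an HSP70 of the microsomes, had 6.81 (p 4.85e-08), both in the overexpression list only.

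The inducible pair HSPA1A and HSPA1B had no promoter peak in either list. An overexpression peak named for HSPA1A (fold 5.03, chr6:31820983-31822127) and another named for HSPA1B (fold 6.58, chr6:31822186-31823269) lay between the genes, with 58 bp between the peaks, 5519 bp and 4466 bp from the starts named for them. These genes are nearly identical copies, so reads from them can be hard to place. How such reads were treated is not given in the sources used here. HSPA2, an HSP70 of the testis, had no peak of its own, and its start lay 161 bp from an overexpression peak named for LOC102723809 (fold 6.81). RefSeq names LOC102723809 HSPA2-AS1, a non-coding gene, and it was no member because of its symbol in the list. HSPA1L, HSPA12A, HSPA12B and HSPA14 had no peak in either list.

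All 3 HSP110 genes, whose products exchange the nucleotide of HSP70, were in the overexpression list with a promoter peak, and the wild-type list had none for them. The shares of all protein-coding genes were 33.9% and 7.40%. With 3 genes the wild-type interval, 0 to 70.8%, includes the share of all genes. HSPA4L had a fold of 13.46 (p 6.25e-16), HSPA4 had 7.83 (p 2.23e-17) and HSPH1 had 5.76 (p 1e-06). All 3 starts lay inside these peaks. The wild-type list named a peak for HSPA4L, 14808 bp upstream of its start, with a fold of 3.91. It was annotated as intronic, but lies outside HSPA4L as counted from that start.

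The HSP90A genes were a class with promoter peaks for both genes in both lists, beside 5.39% of all protein-coding genes. With 2 genes this share is coarse. HSP90AB1, the constitutive HSP90, had an overexpression peak 4774 bp wide (chr6:44245387-44250160, fold 7.89, p 3.56e-20). The wild-type peak of HSP90AB1 was 2297 bp wide (chr6:44245996-44248292, fold 3.81, p 0.000245) and lay wholly inside it. HSP90AB1 also had a second overexpression peak in intergenic sequence, 7587 bp upstream, with a fold of 10.21.

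HSP90AA1, the inducible HSP90, had 2 overexpression promoter peaks at separate starts, with folds of 11.53 (chr14:102085922-102088085, p 2.82e-22) and 12.48 (chr14:102138244-102140981, p 4.86e-20). The first holds the heat shock element shown above, and the second also holds the start of WDR20. The wild-type peak of HSP90AA1 (chr14:102083894-102084518, fold 4.11, p 0.000946) was 625 bp wide and lay 1404 bp from the nearer overexpression peak, at another annotated start. HSP90AA1 therefore counts as a gene with promoter peaks in both lists without a shared peak.

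Of the 8 small heat shock protein symbols 3 had an overexpression promoter peak (37.5%, near the 33.9% of all protein-coding genes). HSPB1 (HSP27), which holds unfolded proteins without ATP, had a fold of 14.62 (p 8.34e-23), the second highest of the members. HSPB11 had 10.07 and HSPB6 9.21. HSPB6 also had a wild-type peak (fold 3.88, p 0.000348) that overlapped the overexpression peak. The listed start inside both peaks named for HSPB6 was that of its neighbour PROSER3. HSPB2, HSPB3, HSPB7, HSPB8 and HSPB9 had no peak in either list.

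**Figure D2:**
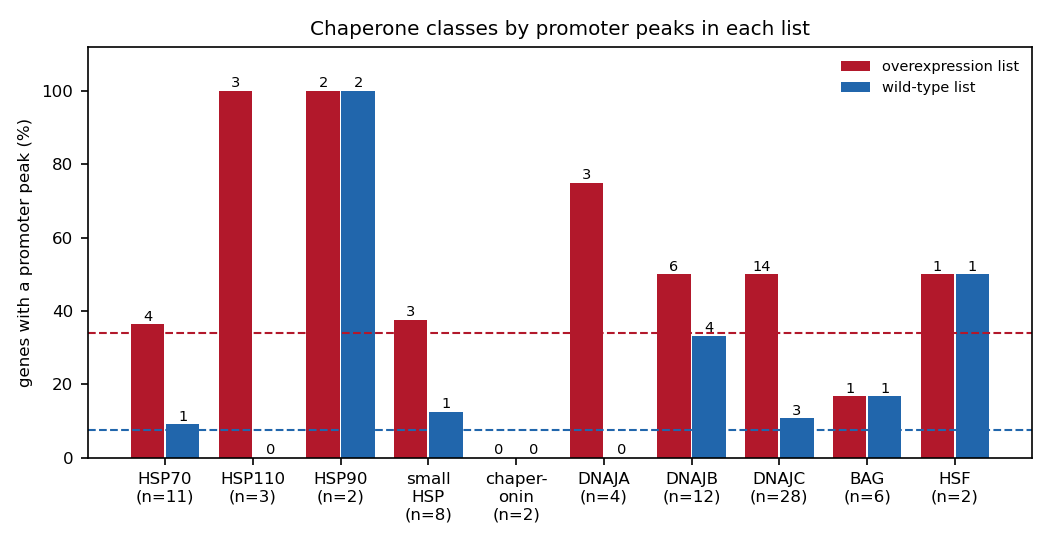
Percent of the genes of each class (x axis, with the number of genes n) with a named promoter peak among the overexpression peaks (red) or the wild-type peaks (blue); numbers over the bars count the genes, and dashed lines give the share of all protein-coding genes, 33.9% and 7.40%. The HSP110 and DNAJA classes have overexpression peaks only, both HSP90 genes have peaks in both lists, and the classes with 2 to 4 genes give coarse shares.

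Of the 44 J-domain genes, 23 were marked by a promoter peak in the overexpression library (52.3%, interval 36.7 to 67.5) and 7 in the wild-type library (15.9%, 6.64 to 30.1). For the 26 heat shock protein genes (HSP70, HSP110, HSP90, chaperonin and small heat shock proteins) the numbers were 12 (46.2%, 26.6 to 66.6) and 4 (15.4%, 4.36 to 34.9). The intervals of these groups overlap widely in both lists. The shares of all protein-coding genes were 33.9% and 7.40%. Both heat shock protein intervals and the wild-type J-domain interval include the share of their list, and the overexpression J-domain interval begins above it. This holds for named peaks only. By listed starts, 26 of 40 J-domain genes (65.0%) and 15 of 23 heat shock protein genes (65.2%) had an overexpression peak within 1 kb, beside 43.0%. For wild-type peaks the numbers were 9 (22.5%) and 3 (13.0%), beside 6.87%. Taking for each gene its highest promoter fold, the median in the overexpression list was 10.53 for the heat shock protein genes and 7.86 for the J-domain genes, beside 7.86 for all protein-coding genes with such a peak.

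Of the 4 DNAJA genes 3 had an overexpression promoter peak (75.0%, beside 33.9% of all protein-coding genes), and none had a wild-type peak of any kind. For wild-type promoter peaks the interval of 0 of 4, 0 to 60.2%, includes the 7.40% of all genes. DNAJA2 had a fold of 11.53 (p 3.35e-11), DNAJA3 11.21 (p 3.03e-20) and DNAJA1 11.0 (p 4.52e-12). DNAJA1 and DNAJA2 are cytosolic partners of HSP70, and DNAJA3 works in mitochondria. Their folds lay close together and above the median of the list. The overexpression peak of DNAJA1 also held the start of APTX, and that of DNAJA2 the start of DNAJA2-DT. DNAJA4 had no peak.

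DNAJB genes had overexpression promoter peaks for 6 of 12 (interval 21.1 to 78.9%) and wild-type ones for 4 (33.3%, 9.92 to 65.1). Among all protein-coding genes the shares were 33.9% and 7.40%. The overexpression interval includes the share of its list, and the wild-type interval begins above it. With 12 genes both intervals are wide. DNAJB4, a cytosolic partner of HSP70, had the highest DNAJB fold, 13.16 (p 1.52e-34), and a wild-type peak with a fold of 3.19 (p 0.000755), which is at percentile 6.15 of the wild-type promoter peaks. DNAJB1, the main heat-inducible J-domain protein, had a fold of 10.84 (chr19:14517161-14518687) over a wild-type peak with 3.99 (p 0.000558). A further overexpression promoter peak of DNAJB1 had 6.51 and also held the start of TECR. DNAJB12, which sits in the ER membrane, had 10.42 (p 4.15e-13) and a wild-type peak with 4.84 (p 2.69e-06).

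Only the overexpression list had promoter peaks for DNAJB6 (7.89), a suppressor of aggregation, for DNAJB14 (7.34), a relative of DNAJB12, and for DNAJB11 (6.59 and 5.76), a partner of BiP in the ER lumen. DNAJB2, a J-domain protein with ubiquitin-binding motifs, was in the wild-type list alone. Its promoter peak was 569 bp wide (chr2:219279553-219280121, fold 4.51, p 0.000771), and the nearest overexpression peak was 14035 bp away. DNAJB5, DNAJB7, DNAJB8 and DNAJB13 had no peak.

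Of the 28 DNAJC genes, 14 had promoter peaks after overexpression (interval 30.6 to 69.4%) and 3 in the wild type (10.7%, 2.27 to 28.2). Both intervals include the shares of all protein-coding genes, 33.9% and 7.40%. The overexpression folds of the DNAJC genes ran from 4.09 to 9.8, with a median of 7.34. They so stayed below those of the leading DNAJA and DNAJB genes. DNAJC1, an ER membrane protein, had the highest fold, 9.8, in the widest of all member peaks, 9133 bp (chr10:21996246-22005378, p 2.22e-39), at percentile 99.7 of the promoter widths. DNAJC25 had 9.26, the mitochondrial DNAJC11 8.38, DNAJC17 7.97 and DNAJC2, which binds ribosomes, 7.86. At the lower end were DNAJC9, a histone chaperone, with 4.09, and DNAJC6, the clathrin-uncoating protein auxilin, with 4.12 (p 0.000951). Between them lay DNAJC13, an endosomal protein, and DNAJC14, both with 7.34, DNAJC21, known for ribosome maturation, with 6.37, DNAJC16 with 5.58 and the mitochondrial import factor DNAJC19 with 5.06.

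DNAJC27, a small GTPase with a J domain, had peaks in both lists, with 7.73 after overexpression (p 1.85e-16) and 4.34 in the wild type (p 3.8e-05). The wild-type peak of DNAJC27 lay wholly within the overexpression peak. DNAJC4 had 3 overexpression promoter peaks, with folds of 7.86, 5.24 and 4.82, and a wild-type one with 3.55, which ended 245 bp short of the nearest of them. That wild-type peak overlapped an overexpression peak named for the neighbour TRPT1 (fold 6.78). DNAJC28 was likewise in the wild-type list alone (chr21:33490259-33492434, fold 3.09, p 0.000218), with the nearest overexpression peak 8824 bp away. Its fold was at percentile 4.43 of the wild-type promoter peaks.

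J-domain proteins of the ER showed how the naming of peaks hides members. Neither DNAJB9, which loads BiP onto the stress sensor IRE1, nor DNAJC3 had a peak of its own. A peak named for THAP5 held the start of DNAJB9 in both libraries, with folds of 10.74 (p 6.28e-29) after overexpression and 3.75 (p 0.00027) in the wild type. Peaks named for DNAJC3-DT held the start of DNAJC3 in both, with 8.77 (p 2.75e-18) and 3.99 (p 3.31e-06). DNAJC10, a disulfide reductase of the ER, had only a wild-type peak in its 3′ untranslated region (fold 4.0, p 0.000807). Of the 5 genes DNAJB9, DNAJB11, DNAJC1, DNAJC3 and DNAJC10, which were listed together for their place in the ER, 2 had a named promoter peak after overexpression and none in the wild type. That is 40.0% and 0%, beside 33.9% and 7.40% of all protein-coding genes. DNAJB12 and DNAJB14 were not on that list, and DNAJB12 had promoter peaks in both libraries. By listed starts, known for 4 of the 5, 3 had a peak after overexpression and 2 in the wild type, beside 43.0% and 6.87%.

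BAG genes, which encode release factors of HSP70, had 1 named promoter peak of 6 in each list, both at BAG3, the factor of stress and selective autophagy. The overexpression peak of BAG3 had a fold of 11.53 (chr10:119650544-119653543, p 1.62e-26) and held the whole wild-type peak, which had 4.48 (p 0.000263). A second wild-type peak of BAG3 lay 31597 bp downstream of the start, in sequence called intergenic. Named peaks thus covered 16.7% of the BAG genes in each list, beside 33.9% and 7.40% of all protein-coding genes. By listed starts all 5 BAG genes with one had an overexpression peak, beside 43.0%. BAG1 lay in a peak named for CHMP5 (7.46), BAG2 in one for ZNF451-AS1 (8.04), BAG5 in one for KLC1 (11.83) and BAG6, which guards membrane proteins in the cytosol, in an 8704 bp peak for APOM (6.58). BAG6 also lay in a wild-type peak named for APOM (4.64, p 1.31e-10).

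No peak was named for HSF1, the main regulator of the heat shock response. HSF2, its relative, had an overexpression peak over its start (chr6:122399525-122400546, fold 5.76, p 8.81e-05). The wild-type promoter peak of HSF2 (chr6:122397337-122397887, fold 5.14, p 0.000159) lay 1659 bp upstream of the start and 1638 bp from the overexpression peak. Its fold was the highest among the wild-type promoter peaks of the members. HSPBP1, a nucleotide exchange factor of HSP70, had an overexpression promoter peak with a fold of 7.86.

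Of 14 heat-responsive genes drawn from these classes, promoter peaks were named for 10 after overexpression (71.4%) and for 5 in the wild type (35.7%). The shares of all protein-coding genes were 33.9% and 7.40%. These 14 genes were picked with earlier results of these data known. By listed starts the numbers were 12 (85.7%, beside 43.0%) and 4 (28.6%, beside 6.87%), the genes without an overexpression peak being HSPA1A and HSPA1B. Of 7 mitochondrial members, 4 had a named overexpression promoter peak (57.1%, beside 33.9%). An overexpression peak lay within 1 kb of a listed start for 6 (85.7%, beside 43.0%). None of the 7 had a wild-type peak by either count, beside 7.40% and 6.87% of all protein-coding genes. With 7 genes the interval for named peaks, 0 to 41.0%, includes the share of all genes.

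Some promoter peaks of the members overlapped between the lists. Of the 46 overexpression promoter peaks 10 overlapped a wild-type peak (21.7%, beside 11.9% of all promoter peaks of that list). Of the 15 wild-type promoter peaks 11 overlapped an overexpression peak (73.3%, beside 56.6%). In 10 pairs both peaks were named for members. The overexpression peak was the wider one in all 10, by a median ratio of 1.92, and in 91.5% of all 1019 overlapping promoter pairs. The wild-type peak lay wholly inside the overexpression peak in 7 of the 10 pairs, and 69.2% of it did at DNAJB12 and 78.8% at both DNAJC3-DT and HSPB6. Summits lay 2 bp apart at DNAJC9-AS1, 11 bp at HSP90AB1, 11 bp at DNAJB12, 68 bp at DNAJB1 and 76 bp at HSPB6. So 5 of the 10 pairs had summits within 100 bp, beside 9.32% of all such pairs; this limit was chosen after the values were seen. At HSPA8 the summits were 901 bp apart, and at BAG3, DNAJB4, DNAJC27 and DNAJC3-DT between 504 and 682 bp.

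**Figure D3:**
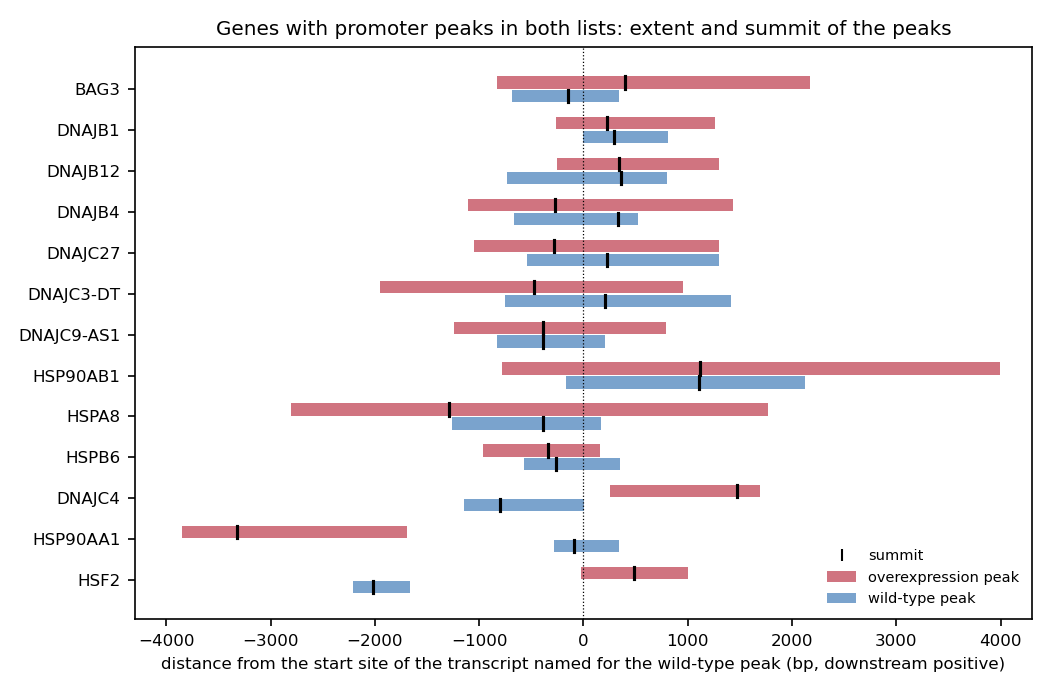
Extent of the promoter peaks (bars) and their summits (black ticks) at the 13 symbols with promoter peaks in both lists, as distance in bp from the start site that the authors' annotation gives for the wild-type peak; red bars are the nearest overexpression promoter peak named for the same gene and blue bars the wild-type peak. At 10 symbols the bars overlap, and at DNAJC4, HSP90AA1 and HSF2 they are 245, 1404 and 1638 bp apart.

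Peaks outside promoters were 8 of 54 in the overexpression list and 12 of 27 in the wild-type list. Promoter peaks thus made up 85.2% of the overexpression peaks of the members (72.9 to 93.4), beside 84.9% of the whole list, and 55.6% of the wild-type ones (35.3 to 74.5), beside 36.0%. None of the 20 peaks outside promoters overlapped a peak of the other list, and few such peaks did at large (5.54% of those in the overexpression list and 2.88% of those in the wild-type list). DNAJC5B, a cysteine-string protein of the testis, held 6 of the 12 wild-type ones. They lay over 109149 bp of chromosome 8 (65950669 to 66059817), 4 in intergenic sequence and 2 in introns, with folds from 3.56 to 4.96. No overexpression peak lay in that stretch, and the nearest was 52513 bp away. DNAJC1 had 2 intronic wild-type peaks, 42684 and 89710 bp downstream of its start, with folds of 4.97 and 3.49. The overexpression list had intergenic peaks for DNAJB12 (6.58 and 5.24), DNAJA2 (9.26) and DNAJC22 (5.76) and a peak in a 5′ untranslated region for DNAJC7 (6.27).

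**Figure D4:**
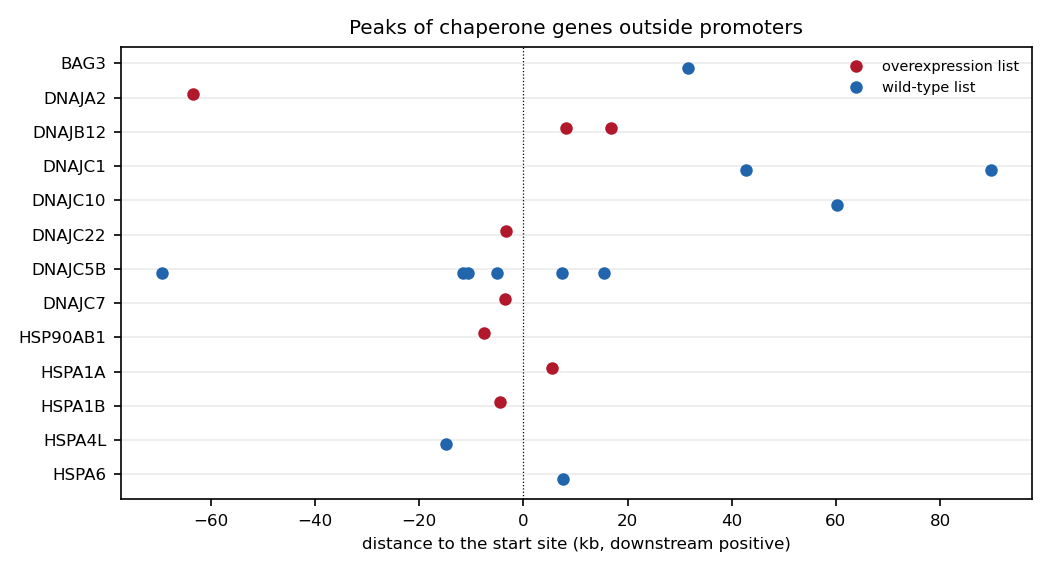
Distance in kb (x axis, downstream positive) from the start site to each peak outside promoters, by gene, in the overexpression list (red, 8 peaks) and the wild-type list (blue, 12 peaks). The wild-type points gather at DNAJC5B, with 6 peaks, and no gene has such peaks in both lists.

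Other chaperone genes were taken from a list of 45 co-chaperones, chaperonins, prefoldins and organelle chaperones that the naming rule does not cover. Promoter peaks were named for 29 of them in the overexpression list (64.4%) and for 8 in the wild-type list (17.8%), with 7 in both (15.6%). The shares of all protein-coding genes were 33.9%, 7.40% and 5.39%, and those of the 80 member genes 47.5%, 16.2% and 13.8%. Shares above those of all genes were thus not particular to the members. The highest overexpression folds were those of SIL1, the exchange factor of BiP (15.48), PTGES3, the HSP90 co-chaperone p23 (14.15), and FKBP5, an HSP90-bound immunophilin (10.96). Wild-type promoter peaks were listed for HSP90B1, CDC37, AHSA1, FKBP5, PPID, UNC45A, PFDN5 and CLPB. HSP90B1, the HSP90 of the ER, was the gene with a wild-type peak only (fold 5.14, p 2.69e-05), while CDC37, which brings kinases to HSP90, had 6.15 and 5.06 after overexpression and 5.83 (p 4e-09) in the wild type.

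The labelled cell type was checked against marker genes. Of 10 plasma cell genes, promoter peaks were listed for 7 after overexpression (70.0%, beside 33.9% of all protein-coding genes) and for 2 in the wild type (20.0%, beside 7.40%). The wild-type ones were at MZB1 and POU2AF1, with none at PRDM1, XBP1, IRF4, SDC1, TNFRSF17 or JCHAIN. A wild-type peak of any kind was listed for 7 of the 10. CD38 had no peak in either list. None of 5 T cell, 5 monocyte or 4 erythroid genes had a promoter peak in either list, and peaks elsewhere were listed for CD3E and CD247 only. The libraries differ in number of peaks, peak width and p over the whole lists, their depth is unknown, and with 1 library per group AIMP1 overexpression and the library cannot be told apart.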

How the data were processed

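Acetylated histone H3 was profiled by ChIP-seq in H929 cells with AIMP1 overexpression and in wild-type cells. The study has 4 samples, of which the 2 acetyl-H3 libraries had peak lists. Fixation took 10 minutes in 1% formaldehyde, and library fragments of 100 to 300 bp, adapters included, were selected, per the labels. Per the submitters' processing notes, cutadapt, Trimmomatic, FastQC and Bowtie2 were used. Which program called the peaks, at what threshold, on which genome build and against which input is not given in the sources used here. As deposited, the fold of a peak is a ratio and the p-value a plain number (largest 0.001). Widths, summit offsets and distances are other deposited values in bp. The summit was read as an offset from the peak's start.

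The 1 library per group allowed no test, so counts are set beside all protein-coding genes on chromosomes with peaks. Gene identifiers were matched to RefSeq (GRCh38.p14): all 45 and 20 member genes of the 2 lists matched and lay at the same place, and 99.8% of all matched genes of each list did. Overlaps needed 1 bp (bedtools 2.31.1). Overlap, naming and start-site steps were tested on planted data. The scripts ran under Python 3.11.15 with scipy 1.17.1, numpy 2.4.6 and pandas 2.3.3; figures were drawn with matplotlib 3.10.9. The members, gene lists, classes and the rule for named genes were chosen with earlier results of these data known. The rule named every member with a wild-type promoter peak, the 5 highest overexpression folds of each class, the 5 widest peaks, all heat shock protein, BAG and HSF genes with a peak, members with peaks outside promoters only, and of other chaperones the 3 highest folds and all with a wild-type promoter peak. The remaining names complete a class and were added after their values were seen. No promoter sequence was used for BAG4, DNAJC1, DNAJC5B, DNAJC22, DNAJC24, HSF1, HSPA12B, HSPA14 and HSPB2. Alternatives were peaks within 1 kb of a start, any annotated peak, p of at most 1e-05, a fold at or above the median of both lists, lists of equal length, listed starts, and wider or stricter overlap; counting protein-coding members only was added after the data were seen.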

Additional observations from a re-analysis of the deposited data

How the results depend on the processing

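No paired analysis was possible because there was a single library for either group. Counts of overexpression promoter peaks, over all members and for J-domain and heat shock protein genes, stayed within 1.5 times under every alternative run. Wild-type counts depended on the peaks kept. At p of at most 1e-05, 3 members had a wild-type promoter peak (1 J-domain and 1 heat shock protein gene), 3 had one in both lists, 0 in the wild-type list only, and 6 promoter peaks of either list overlapped, against 21. With folds kept from 6.11 upwards, the median over both lists, the wild-type, both and wild-type-only counts, and those of J-domain and heat shock protein genes, were 0; wild-type folds run lower, so this limit removes mostly them. Lists of equal length (4828 peaks) left 18 members in the overexpression list only, against 28, and 4 in the wild-type list only, against 2. Any annotated peak gave 4 in the wild-type list only. For the p, fold and equal-length settings, shares of all protein-coding genes are not given here, so those counts describe the members alone. In all, 14 of the values moved by more than 1.5 times and 49 did not. The depth of the libraries is unknown.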
